A study of Homo sapiens with 5 samples.

Results

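The S100 genes encode small calcium-binding proteins, and the mRNAs of 10 of them (S100A2, S100A4, S100A6, S100A8, S100A9, S100A10, S100A11, S100A14, S100A16 and S100P) were followed through RNA immunoprecipitation (RIP) in MCF10A cells, an established human breast epithelial line. The 10 were chosen by gene symbol from the 56632 gene identifiers in the tables. Every member was among the 11764 analysed genes, those whose FPKM averaged 1 or more across the 5 libraries. FPKM is a fragment count scaled to transcript length and library size, so it can be compared between genes. Of the 10 mRNAs, S100A11 alone was enriched in both the FLAG-CBFB RIP (CBFB RIP below) and the hnRNPK RIP, while the others were not, and S100A2 and S100A6 were called lower in the hnRNPK RIP than in the parental input by a count test.

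S100 proteins carry a pair of EF-hand motifs, mostly work as dimers, and expose a binding face when calcium is bound. Inside the cell S100A10 and S100A11 bind annexins, S100A6 binds calcyclin-binding protein (CACYBP), S100A4 binds non-muscle myosin heavy chain MYH9, and S100P binds ezrin. S100A8 and S100A9 together form calprotectin, which is abundant in myeloid cells and is also made by epithelial cells under stress, and which signals outside the cell through receptors such as TLR4 and AGER. Most of the family is encoded in the epidermal differentiation region of chromosome 1.

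The libraries were the input and the anti-FLAG RIP of MCF10A cells expressing FLAG-CBFB, and the input and 2 anti-hnRNPK RIP repeats of MCF10A cells without the tagged protein (parental). All came from untreated cells below passage 20, grown with EGF, insulin, hydrocortisone, cholera toxin and horse serum. CBFB is the partner subunit of RUNX transcription factors, while hnRNPK binds RNA with a preference for C-rich stretches. The study asked which mRNAs each protein binds. For its FLAG pulldowns the study describes lentiviral expression of the tagged protein in CBFB-deleted MCF10A cells, but the labels do not say whether the cells used here lacked their own CBFB. The anti-FLAG RIP and each input were single libraries, a mock precipitation was not analysed here, and nothing in the labels says that the hnRNPK repeats came from separate cultures.

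Libraries held 69786576 to 106855647 expected counts. Transcripts of the mitochondrial genome made up 4.27% and 11.2% of counts of the FLAG-CBFB and parental inputs, but 62.2% in the CBFB RIP and 84.5% and 86.6% in those of hnRNPK. The FPKM of most nuclear genes was below that of the input in each RIP (the part of the mitochondrial share in this was not tested), with a mean log2 ratio over the analysed genes of -1.34 for the CBFB RIP and of -2.61 and -2.68 for the hnRNPK RIPs. Enrichment below is the log2(FPKM + 1) of a RIP minus that of its input, centred on that mean, so 0 is the average gene. On this scale the median analysed gene lay at -0.19 for CBFB and at -0.11 for hnRNPK. All 10 epithelial markers examined had an FPKM of at least 1 in both inputs, the summed FPKM of 5 fibroblast markers was 1.47 and 2.71, and the 2 endothelial markers found summed to at most 0.01.

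Of the 10 genes, 9 lie within 1.63 Mb of chromosome 1 (GENCODE 29 on GRCh38, positions 151982915 to 153616986), and S100P lies on chromosome 4 at 6693069 to 6697170. S100A11 (152032506 to 152047907, minus strand) and S100A10 (151982915 to 151994390, minus strand) lie 38.1 kb apart. As hnRNPK prefers C-rich RNA, the 30-base stretch with the most C in the longest coding transcript is shown for the member enriched in both RIPs, the member lowest in the hnRNPK RIP, and a pair with about as many TCCC words per kilobase as the first. For these 4 the length of that transcript lay close to the mean transcript length in the tables, as it also did for S100A8 and S100A9, which are not shown. Runs of 3 or more C are in capitals, and each line is the RNA sense strand, 5′ to 3′, written with T.
S100A11 5′UTR: gcgccgctCCCagccacagcctCCCgcgcc
S100A6 5′UTR: CCCCCatCCCgtcctaaCCCggaacagCCC
S100A4 5′UTR: ccgtCCCCattcttCCCCtctctacaaCCC
S100A16 3′UTR: ctCCCCaggctCCCtcctcagcctcctgcc
These stretches lie at chr1:152036931-152036960, chr1:153536158-153536187, chr1:153545785-153545814 and chr1:153607450-153607479, each within a single exon on the minus strand. The stretch of S100A11, the member enriched in both RIPs, holds 18 C, and that of S100A6 holds 17. The S100A11 stretch has fewer runs of 3 or more C than that of S100A6, the member lowest in the hnRNPK RIP.

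In the inputs S100A2 was the most abundant of the 10 mRNAs and S100A11 was only the fourth, and in every RIP S100A11 was the first. S100A2 took 40.3% of the summed FPKM of the 10 in the FLAG-CBFB cell input and 48.3% in the parental input. Its share was 27.3% in the CBFB RIP and 8.52% and 12.3% in those of hnRNPK. S100A11 took 10.7% and 9.62% in the inputs. Its share was 49.7% in the CBFB RIP and 76.7% and 70.5% in those of hnRNPK. The same was seen in counts, where S100A11 held 7.91% (95% Wilson interval 7.86 to 7.97%) of the members' counts from FLAG-CBFB cells before precipitation and 44.3% after it (44.2 to 44.5%). The corresponding shares for parental cells were 8.03% before (7.97 to 8.09%), and 68.9% (68.7 to 69.2%) and 63.7% (63.4 to 64.0%) after hnRNPK precipitation. These shares do not depend on the mitochondrial share of a library, and the intervals cover counting error only.

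**Figure D1:**
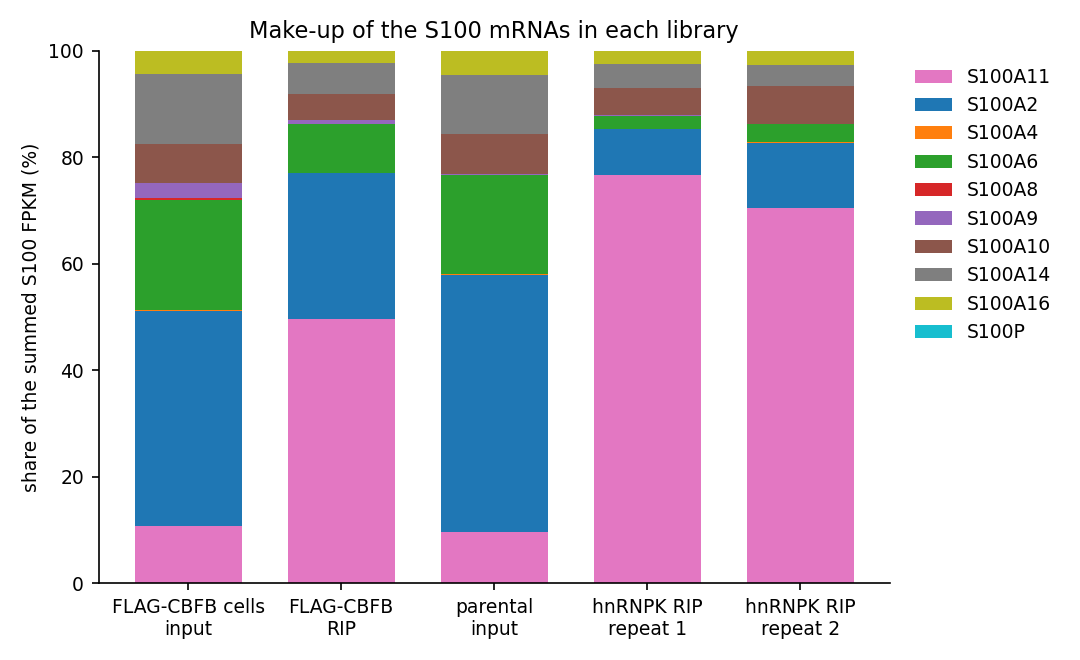
Share of the summed FPKM of the 10 S100 mRNAs (percent, vertical axis) taken by each mRNA in each of the 5 libraries. S100A11, at the foot of each bar, takes 10.7% and 9.62% in the inputs and 49.7%, 76.7% and 70.5% in the RIPs.

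S100A11 (ENSG00000163191), an annexin A1 partner that regulates growth and membrane repair in epithelial cells, had an FPKM of 1633 in the FLAG-CBFB cell input and 5391 in the CBFB RIP. It stood at 1999 in the parental input and at 1899 and 1823 in the hnRNPK RIPs. Among all nuclear genes it ranked 84 and 68 in the inputs, 1 in the CBFB RIP, and 3 and 4 in those of hnRNPK. Its FPKM was 3.30-fold that of its input in the CBFB RIP, and 0.950-fold and 0.912-fold in those of hnRNPK of the parental input, while the mean log2 ratio of analysed genes there was -2.61 and -2.68. The centred enrichment of S100A11 was 3.06 for CBFB and 2.54 for hnRNPK, with repeats at 2.54 and 2.55 (SD 0.01, n = 2). It was the only one of the 10 members above 2, a 4-fold enrichment, in either RIP, where 4.37% of analysed genes were above 2 for CBFB and 8.2% for hnRNPK. For CBFB 98.1% of analysed genes lay below it, and for hnRNPK 94.4%. The hnRNPK value rests on the centring, since the ratio as deposited was -0.10.

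**Figure D2:**
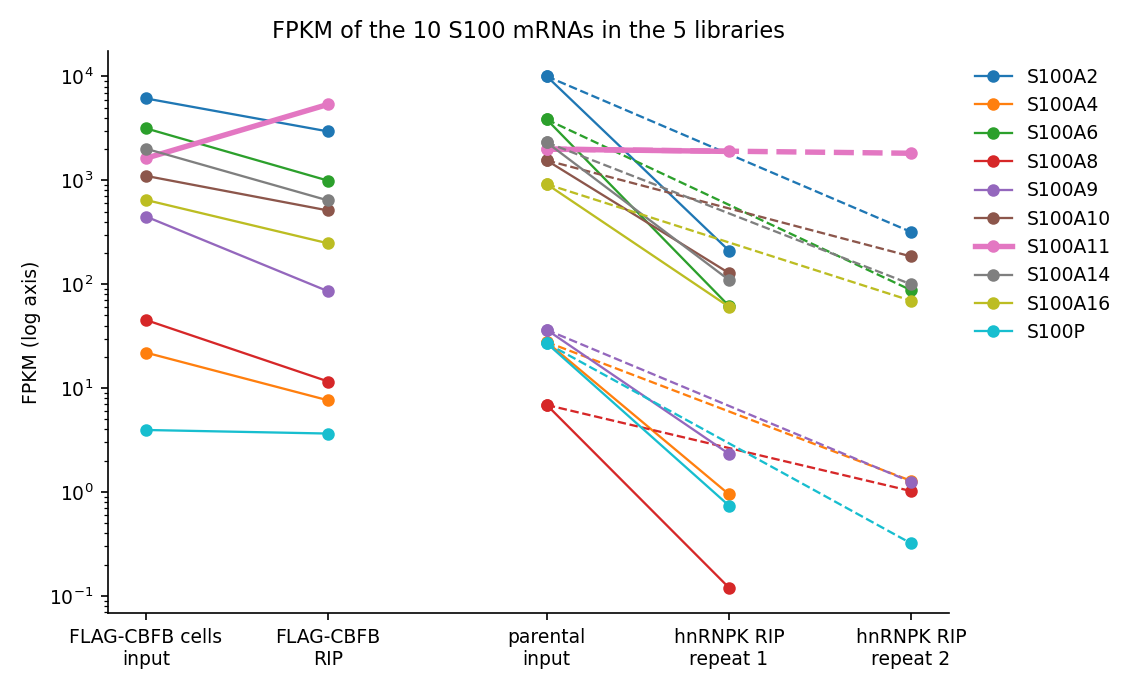
FPKM of each of the 10 S100 mRNAs (logarithmic axis) in the 5 libraries. Lines join each input to its RIP, dashed for hnRNPK repeat 2. The S100A11 line (thick) rises from 1633 to 5391 in the CBFB RIP and stays between 1823 and 1999 in the parental input and hnRNPK RIPs, while the other lines run lower in the RIP than in the input.

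S100A10 (ENSG00000197747), which forms a complex with annexin A2 at the plasma membrane, lies near S100A11 in the genome and had a lower FPKM in each RIP than in its input. Its FPKM was 1104 in the FLAG-CBFB cell input and 513 in the CBFB RIP, and 1556 in the parental input against 128 and 185 in the hnRNPK RIPs. Its centred enrichment was 0.23 for CBFB and -0.68 for hnRNPK (-0.98 and -0.39 in the repeats). The gap between S100A11 and S100A10, which no centring can change, was 2.83 for CBFB and 3.22 ± 0.41 (SD, n = 2) for hnRNPK. Both genes were within 0.204 of each other in the ratio of the inputs.

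S100A6 (ENSG00000197956), or calcyclin, is linked to proliferating cells and had the lowest hnRNPK enrichment of the members. It had an FPKM of 3165 in the FLAG-CBFB cell input and 992 in the CBFB RIP. In the parental input it had 3855, and in the hnRNPK RIPs 61.9 and 87.7, which is 62.3-fold and 44.0-fold lower. Its centred enrichment was -0.33 for CBFB and -3.05 for hnRNPK (-3.33 and -2.76, SD 0.40). Of the 2119 analysed genes abundant enough in the parental input to reach its hnRNPK ratio on this scale, 44 (2.08%) lay lower. The FPKM of S100A11 was 0.516 and 0.519 times that of S100A6 in the inputs, 5.43 times in the CBFB RIP, and 30.7 and 20.8 times in the hnRNPK RIPs.

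S100A2 (ENSG00000196754), a nuclear S100 protein typical of basal and stratified epithelium, ranked 2 among nuclear genes by FPKM in each input. Its FPKM was 6143 in the FLAG-CBFB cell input and 2957 in the CBFB RIP. It was 10037 in the parental input, then 211 and 319 in the hnRNPK RIPs, 47.6-fold and 31.5-fold lower. The centred enrichment of S100A2 was 0.28 for CBFB and -2.63 for hnRNPK (-2.96 and -2.29, SD 0.47). S100A2 and S100A6 were the 2 of 10 members below -2 for hnRNPK, as were 6.24% of analysed genes, a value that weakly expressed genes cannot reach on this scale. S100A2 stood above S100A6 in both repeats, by 0.37 and 0.47.

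S100A14 (ENSG00000189334) and S100A16 (ENSG00000188643) are less studied members that are widely made in epithelia. S100A14 had an FPKM of 2015 in the FLAG-CBFB cell input, 640.1 in the CBFB RIP, 2318 in the parental input, then 110.0 and 99.9 after hnRNPK RIP. S100A16 had 647, 247, 919, 60.7 and 69.4 in the same order. Centred enrichment was -0.31 for CBFB and -1.81 for hnRNPK (SD 0.05) for S100A14, and -0.04 and -1.16 (SD 0.18) for S100A16. S100A4 (ENSG00000196154), a motility-linked protein, was weakly expressed, at 21.9, 7.62, 27.8, 0.95 and 1.28 FPKM, and its centred values were -0.07 and -1.13 (SD 0.21). S100A4 overlaps S100A3 on the same strand, so its level is uncertain. For hnRNPK all 3 lay below the average gene. For CBFB they lay near it, and on log2 CPM with TMM factors their CBFB values were above 0, at 0.05 for S100A14, 0.31 for S100A16 and 0.17 for S100A4.

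The calprotectin pair and S100P differed between the inputs, so their enrichment depends on which input is used. S100A9 (ENSG00000163220) had an FPKM of 448 in the FLAG-CBFB cell input and 36.4 in the parental input, 12.3-fold higher in the tagged cells. S100A8 (ENSG00000143546) had 45.2 and 6.88, 6.57-fold higher. S100P (ENSG00000163993), a stress- and tumour-linked member, had 3.95 and 27.1, 6.85-fold lower. The centred ratio of the inputs was 3.62 for S100A9, 2.58 for S100A8 and -2.47 for S100P. Between the inputs 2 of 10 members were thus above 2, as were 0.519% of analysed genes, and 1 was below -2, as were 0.816%. The other 7 members differed between the inputs by less than 1. Each input is a single library, so no test was possible, and cell line and library cannot be told apart. In bulk RNA, fewer cells that make an mRNA and less of it per cell cannot be told apart either. Of 8 markers of myeloid cells, in which calprotectin is abundant, only 2 and 1 reached an FPKM of 1 (CD14 at 12.4 and 16.4, and CD68 at 3.92 and 0.80), the summed FPKM of the 8 was 16.6 and 17.4, and LYZ and FCGR3B were at 0 in both inputs.

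Against its own input S100A9 had the lowest CBFB enrichment of the members, -1.04, with an FPKM of 85.4 in the CBFB RIP. S100A8 had 11.6 FPKM there and an enrichment of -0.54. Set against the parental input, the values became 2.58 for S100A9 and 2.04 for S100A8, and 3 members in place of 1 passed 2. Set against the FLAG-CBFB cell input, the hnRNPK values became -4.74 for S100A9, -2.33 for S100A8 and 0.91 for S100P. In the hnRNPK RIPs S100A9 had 2.33 and 1.25 FPKM (enrichment -1.13, SD 0.35), and S100A8 had 0.12 and 1.02 FPKM, from 4 and 35 counts (enrichment 0.25, SD 0.65). For S100A8 the scale allows no log2 ratio under -2.98 before centring, so its hnRNPK value cannot be ranked against abundant members, and it was -0.37 with a pseudocount of 0.1 and -0.80 on log2 CPM with TMM factors. S100P had 3.65 FPKM in the CBFB RIP, from 130 counts, and an enrichment of 1.25, which became -1.22 against the parental input. It was the other member above 1 for CBFB, making 2 of 10, as were 9.27% of analysed genes. In the hnRNPK RIPs S100P had 0.74 and 0.32 FPKM from 52 and 9 counts (enrichment -1.57, SD 0.23), and its mean transcript length in the tables moved from 444 nt in the parental input to 852 and 475 nt in the repeats.

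Over the 10 members, 9 had a lower FPKM in the CBFB RIP than in its input, and 10 had a lower FPKM in both hnRNPK RIPs than in the parental input. Most analysed genes fell too, with a median log2 ratio before centring of -1.53 for CBFB and -2.75 for hnRNPK. These 2 counts therefore do not set the members apart. After centring, 6 of 10 were below 0 for CBFB, as were 64.9% of analysed genes, and 8 of 10 for hnRNPK, as were 53.2%. For CBFB the sign of S100A4, S100A6, S100A14 and S100A16 turned on log2 CPM with TMM factors, as did that of S100A8 and S100A10 for hnRNPK. The median enrichment of the 10 was -0.06 for CBFB and -1.14 for hnRNPK, and without S100A11 it was -0.07 and -1.16. An order can be read only among members abundant enough to fall far on this scale, so it was taken over the 6 with at least 50 FPKM in the parental input, a choice made after their values were seen. For hnRNPK, S100A11 (2.54) was followed by S100A10 (-0.68), S100A16 (-1.16), S100A14 (-1.81), S100A2 (-2.63) and S100A6 (-3.05), and this order was the same under 13 of 13 other settings, although a change of centring alone cannot alter it. Neighbours lay apart by more than the sum of their SDs over the repeats, except S100A10 with S100A16 and S100A2 with S100A6. That sum leaves aside that the members share the same repeats. In both repeats S100A10 (-0.98 and -0.39) was above S100A16 (-1.29 and -1.03), and S100A2 was above S100A6. The values of S100A4, S100A8, S100A9 and S100P are limited from below by their low level in the parental input and were not ranked.

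**Figure D3:**
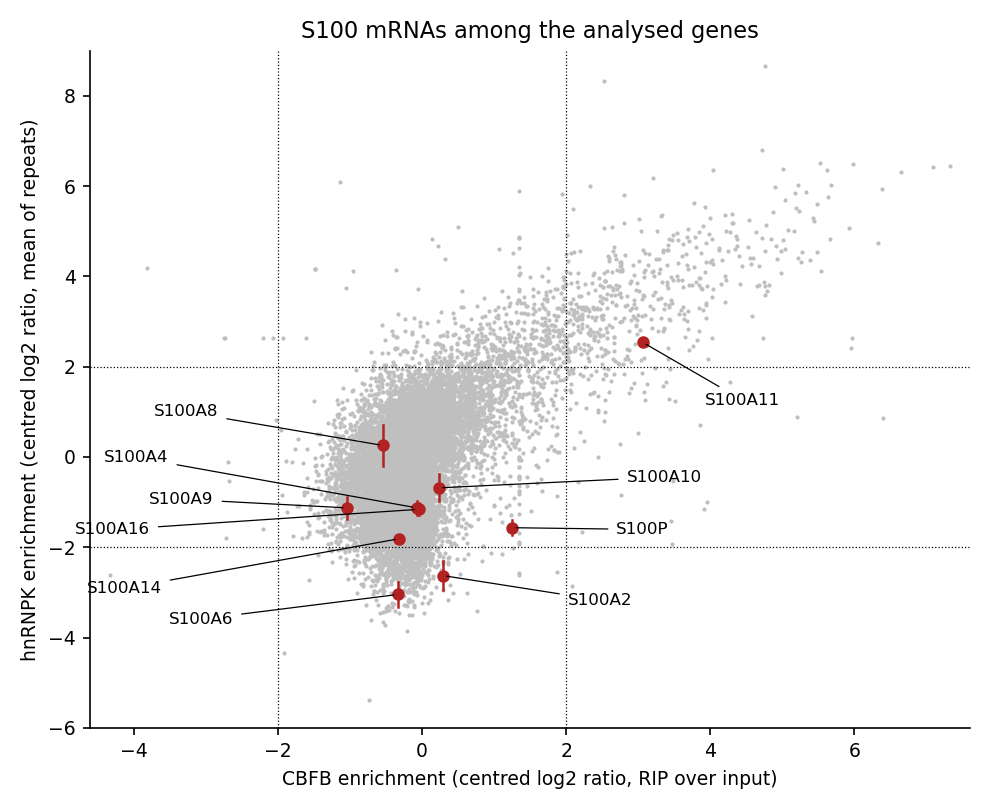
Centred log2 enrichment in the CBFB RIP (horizontal axis, 1 library) and in the hnRNPK RIPs (vertical axis, mean of 2 repeats) of the analysed genes (grey) and the 10 S100 mRNAs (red). Red vertical lines run from one hnRNPK repeat to the other, and dotted lines mark 2 and -2, that is 4-fold. S100A11 is at 3.06 and 2.54, and the other members are below 2 on both axes.

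Expected counts of the 2 hnRNPK RIP libraries were tested against the parental input with edgeR's quasi-likelihood test, which scales libraries by TMM and takes its spread from the repeats alone. S100A11 had 60397 counts in the parental input, then 83293 and 69882 in the RIPs, S100A6 had 140494 against 3284 and 4061, and S100A2 had 281555 against 10456 and 12686. The SE given with edgeR values is the absolute log2 fold change divided by the square root of the test's F statistic. S100A11 rose by a log2 fold change of 3.66 (SE 0.38, Benjamini-Hochberg adjusted p = 4.25e-20, edgeR). S100A6 fell by 1.91 (SE 0.32, adjusted p = 1.7e-08, edgeR) and S100A2 fell by 1.26 (SE 0.31, adjusted p = 0.000282, edgeR). Thus 1 of 10 members was called up, as were 21.9% of the 16639 genes tested, and 2 were called down, as were 15.8%. Calls down were far more frequent among short and abundant genes, described below, where edgeR called 56 up and 336 down of 494 tested. The other 7 did not pass, with log2 fold changes from -0.91 (S100P, adjusted p = 0.187, edgeR) to 0.44 (S100A10, adjusted p = 0.315, edgeR). S100A14 was nearest to the threshold at -0.69 (SE 0.32, adjusted p = 0.0709, edgeR), and it passed without the filter on low counts (-0.91, adjusted p = 0.0134, edgeR). The median analysed gene stood at -0.29 in this test, and S100A10 was below 0 on the centred FPKM scale and above 0 here.

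**Figure D4:**
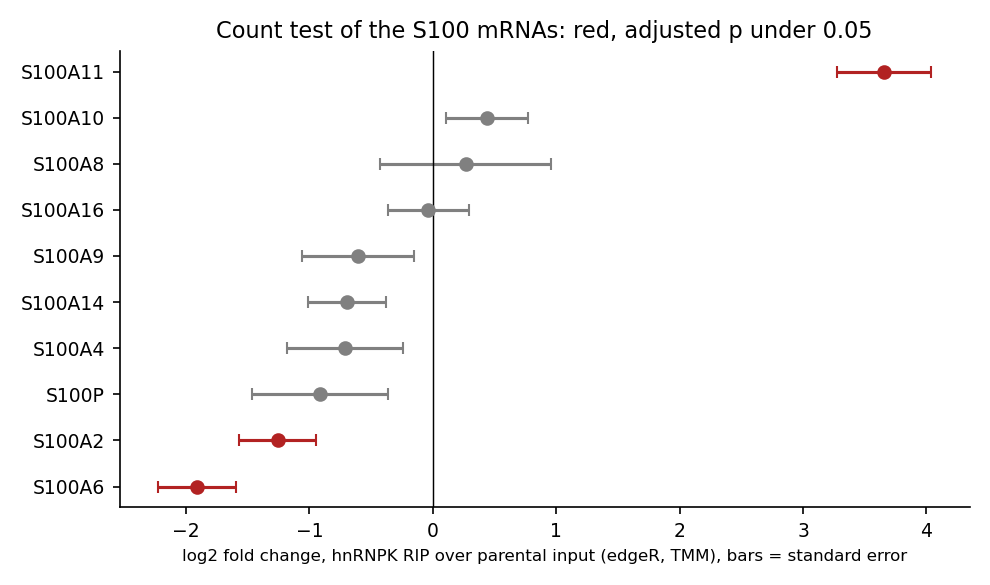
Log2 fold change of each S100 mRNA in the hnRNPK RIPs over the parental input by edgeR (horizontal axis, 2 libraries against 1). Bars are standard errors derived from the F statistic of the test. Red marks an adjusted p under 0.05, which holds for S100A11 (3.66), S100A2 (-1.26) and S100A6 (-1.91).

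S100 mRNAs are short and abundant, so they were set beside mRNAs of the same kind. Of 484 nuclear analysed genes with an effective length of 1000 nt or less and an FPKM averaging 50 or more, S100A11 was 1 of 28 above 2 for CBFB and 1 of 23 for hnRNPK, and 20 and 19 of the 484 had a higher value. The median over all 495 such genes, mitochondrial ones included, was -0.17 for CBFB and -2.23 for hnRNPK. For hnRNPK 443 of the 495 were below 0 and 313 were below -2, so low values like those of S100A2 and S100A6 were common among them. For hnRNPK, S100A2 and S100A6 lay close to the 82 analysed mRNAs of cytosolic ribosomal proteins, short and abundant transcripts whose median was -0.49 for CBFB and -2.62 for hnRNPK (-1.45 in the edgeR test, against -1.19 for the short and abundant genes and -1.26 for S100A2), and of which edgeR called 0 up and 72 down (0 up also at an unadjusted p under 0.05, and 0 up and 68 down by DESeq2). The 14 analysed keratin mRNAs, epithelial like the S100 set but longer, had medians of 0.27 and -0.78. GAPDH, used by the study as a reference transcript, had -0.18 and -2.69. RUNX1, the mRNA at the centre of the study, had 2.13 and 3.09, the same side of 2 as S100A11 in each RIP. Of all analysed genes, 446 were above 2 in both RIPs, and S100A11 was 1 of the 23 of these that were nuclear, short and abundant.

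The order of the ranked members did not follow a single count of C-rich words, and whether such words play a part was not tested. The longest coding transcript of S100A11 (594 nt, of which bases 121 to 435 are coding) is 32.2% C, the highest of the 10, which range from 23.3%, and 91.6% of the 10531 analysed genes with a coding transcript have less. It holds 35.4 CCC words per kilobase, also the highest of the 10, counted on the sense strand with overlaps, against a median over genes of 17.6. S100A6 holds 34.2, nearly as many, with the lowest hnRNPK enrichment of the 10. For TCCC, S100A11 holds 10.1 per kilobase, S100A16 holds 10.5 and S100A4 holds 10.0, against a median of 4.56. CCC occurs in 99.98% of these transcripts and TCCC in 99.6%, so their presence separates nothing. Across genes the Spearman correlation with hnRNPK enrichment was 0.17 for C share, 0.23 for CCC per kilobase, 0.26 for TCCC per kilobase and 0.32 for the C count of the richest 30-base stretch (n = 10531). With CBFB enrichment the values were 0.24, 0.25, 0.27 and 0.08. The length of the same transcript had 0.30 with hnRNPK and -0.32 with CBFB enrichment, and its part in the values for C was not tested. Among 1572 short genes the hnRNPK values, on the ratio before centring, were 0.22, 0.25, 0.20 and 0.24 in the same order. Length had 0.11 there. Each is a description over genes that share libraries and are not replicates.

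**Figure D5:**
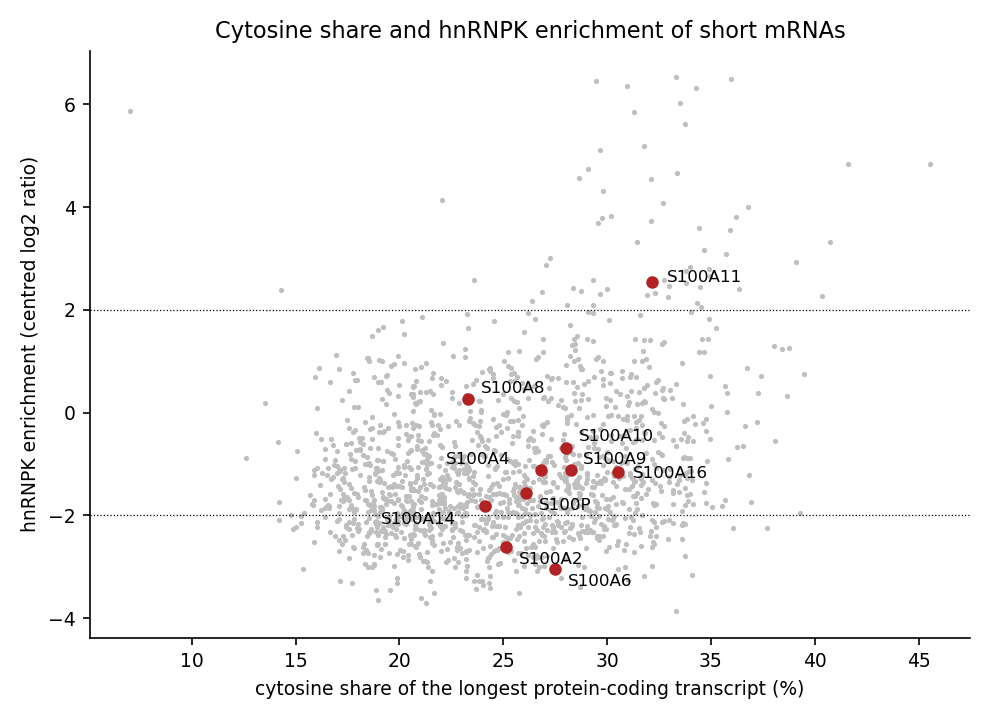
Cytosine share of the longest protein-coding transcript (percent, horizontal axis) and centred hnRNPK enrichment (vertical axis) of analysed genes with an effective length of 1000 nt or less (grey) and of the 10 S100 mRNAs whatever their length (red). S100A11 has the highest share of the members, 32.2%, and is the only one above 2, while S100A16 at 30.5% lies at -1.16.

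Of 12 protein partners and receptors of S100 proteins 11 were analysed, and the edgeR test called 2 up and 4 down in the hnRNPK RIPs, where 21.9% of all genes tested were called up and 15.8% down. ANXA1, an annexin bound by S100A11, had 510 FPKM in the parental input, then 11.8 and 10.7 in the RIPs. It fell by 1.79 (SE 0.33, adjusted p = 4.64e-07, edgeR). ANXA2, the annexin bound by S100A10, fell by 1.36 (SE 0.31, adjusted p = 9.71e-05, edgeR), and CACYBP, which binds S100A6, fell by 1.68 (SE 0.34, adjusted p = 6.15e-06, edgeR). The mRNAs of S100A11 and ANXA1 were thus called in opposite directions, and those of S100A6 and CACYBP in the same. Each was set beside a single named partner, and other partners of the same protein were not compared. S100A10, S100A4 and S100P were not called, so their pairs cannot be compared in this way. Of 1107 tested genes averaging 50 FPKM or more, which include ANXA1, ANXA2 and CACYBP, edgeR called 560 down and 280 up. A link between members and partners was not tested. ALCAM, a cell adhesion protein, also fell, by 0.89 (adjusted p = 0.0312, edgeR), and did not pass in DESeq2 (adjusted p = 0.0786). BSG, a receptor for calprotectin, rose by 1.81 (SE 0.35, adjusted p = 2.64e-06, edgeR), and MYH9 rose by 1.19 (SE 0.34, adjusted p = 0.00227, edgeR). On the centred scale none of the 11 was above 2 in the CBFB RIP or in the mean of the hnRNPK repeats, where BSG was at 0.67. The other 5 did not pass. Their log2 fold changes ran from -0.78 (EZR, adjusted p = 0.0607, edgeR) through S100PBP (-0.44), ANXA6 (-0.17) and ANXA11 (0.50) to 0.98 (AGER, adjusted p = 0.109, edgeR). TLR4, with a mean FPKM of 0.07, was not among the analysed genes. It was not called either (log2 fold change 0.50, adjusted p = 0.759, edgeR).

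Of 10 other S100 genes, 8 had a mean FPKM under 1 (S100A1, S100A5, S100A7, S100A7A, S100A12, S100B, S100G and S100Z), and 2 of these had no count in any library. S100A13, which takes part in release of growth factors, had 164 FPKM in the FLAG-CBFB cell input, 60.8 in the CBFB RIP, 241 in the parental input, then 7.13 and 7.34 in the hnRNPK RIPs. It fell by 1.12 in the edgeR test (SE 0.35, adjusted p = 0.00487), the same direction as S100A2 and S100A6. Such a fall was common among the short and abundant genes, to which S100A13 belongs. Their median in that test was -1.19, and 336 of 494 were called down. S100A3 had 12.7, 5.44, 38.8, 2.70 and 2.40 FPKM and a log2 fold change of -0.13 (adjusted p = 0.824, edgeR). Near-copies can share reads, and the 8 S100 pseudogenes in the tables, 6 of them of S100A11, had 0 counts in every library. Outside the family, the 5 genes whose log2(FPKM + 1) over the 5 libraries lay closest to the members' median profile, by Euclidean distance, were METTL23 (0.244), MAPRE1 (0.290), PIK3R4 (0.299), TIMM17A (0.302) and AP2M1 (0.303), while S100A11 itself lay at 3.91 from that median, farther than any other member.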

How the data were processed

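The authors sequenced TruSeq mRNA libraries of column-cleaned Trizol RNA. The submitters' processing notes name Trimmomatic, STAR, RSEM and hg19. Versions and the annotation release are not given in the sources used here. The deposited tables hold RSEM's expected counts, FPKM and mean transcript lengths per Ensembl gene, and molecular identifiers were not used. The authors' expected count values were rounded to whole numbers for the tests, and the deposited FPKM values were used on the log2(FPKM + 1) scale, which understates changes of weak genes. Of the 56632 identifiers 50276 were named through a gene name table and GENCODE 29, and all 10 members matched. Coordinates and transcript sequences are GENCODE 29 on GRCh38, as the tables hold none.

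Each sample was put in its group by its title. Enrichment was centred on the mean over genes whose FPKM averaged 1 or more, and called past 2 or -2. With 1 library per arm the CBFB and input ratios have no test. The 2 hnRNPK RIPs and the parental input were compared with edgeR 4.0.16 (R 4.3.3, quasi-likelihood test, TMM, filterByExpr, Benjamini-Hochberg over 16639 genes, adjusted p under 0.05), with DESeq2 1.42.0 as an alternative. The p-values measure only the spread between the RIP repeats, which may be technical. The repeats' counts differed by more than sampling noise (chi-square per degree of freedom 71.3). Tested on simulated data from this comparison (13918 genes), edgeR recovered 197 of 199 changed genes with 12 false calls. The simulation drew every library from the mean RIP profile with a fixed spread, and changed few genes, each by at least 4-fold. It cannot gauge error rates here, where input and RIP differ in make-up and many genes were called. Nor does it cover changes under 4-fold, such as those of S100A2 and S100A6.

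The genes named come from the 10 members, 10 other S100 genes, 12 partners and receptors (another on the list is not reported here), RUNX1 and GAPDH, the 5 genes of the most similar profile, marker genes of 4 cell types, and counts over ribosomal protein and keratin genes. The members and lists were chosen with earlier results of these data known. Alternatives were a pseudocount of 0.1, other centring sets, no centring, rescaling without mitochondrial genes, log2 CPM (prior count 2) with TMM or DESeq2 factors, the opposite input, a 2-fold call, a minimum average FPKM of 5, and each repeat left out.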

Additional observations from a re-analysis of the deposited data

Results flagged for a closer look

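In 3 members the FLAG-CBFB RIP moved to the opposite side of 0 from both hnRNPK repeats. S100A2 was at 0.28 for CBFB and at -2.96 and -2.29 for hnRNPK, a difference of 2.91 from the mean of the repeats. S100P was at 1.25 against -1.40 and -1.73, a difference of 2.82, and S100A10 was at 0.23 against -0.98 and -0.39, a difference of 0.92. The differences were not tested, because the FLAG-CBFB RIP is a single library and the RIPs come from different cells with different inputs. Against the parental input the CBFB values of these 3 mRNAs were -0.39, -1.22 and -0.23, so that the opposite sign was not seen there. Without centring they were -1.05, -0.09 and -1.11, again on the same side as hnRNPK, so the opposite sign depends on where 0 is placed. With centring over all genes it was lost for S100A2 (-0.74) and S100A10 (-0.79). For S100A10 it was also lost for hnRNPK with a pseudocount of 0.1 (0.11), rescaled without mitochondrial genes (0.35), and on log2 CPM with TMM (0.11) or DESeq2 (0.37) factors, and for CBFB with centring on short genes (-0.08), where S100A2 was at -0.03.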

How the results depend on the processing

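S100A11 had the highest enrichment of the 10 members in each RIP library, and the edgeR calls of 1 member up and 2 down were also made by DESeq2, with DESeq2 size factors in edgeR and without mitochondrial genes. Counts of members past 4-fold depended on the scale. Without centring, 0 members were above 2 and 1 was below -2 for CBFB, 0 were above 2 and 9 below -2 for hnRNPK, and the hnRNPK value of S100A11 turned to -0.10. The median analysed gene was then itself at -1.53 for CBFB and at -2.75 for hnRNPK. Centring over all genes gave 1 below -2 for CBFB, and 0 above 2 and 8 below -2 for hnRNPK. For hnRNPK, 1 member was below -2 when centring used genes averaging 50 FPKM or more, when FPKM was rescaled without mitochondrial genes, and on log2 CPM with TMM factors, and 0 were with DESeq2 size factors. A 2-fold call gave 2 members above for CBFB, as were 9.27% of analysed genes, and 1 below, and it gave 7 below for hnRNPK. The parental input gave 3 members above 2 for CBFB, and the FLAG-CBFB cell input gave 3 below -2 for hnRNPK (S100A6, S100A8 and S100A9), with S100A2 at -1.95. Another centring subtracts a constant that is the same for each member, and for the remaining settings the cause was not tested. Leaving out either hnRNPK repeat kept the counts of members above 2 and below -2. Apart from the 2-fold call above for CBFB, shares of all analysed genes under changed settings are not given here. Such counts therefore do not set the members apart from other genes.

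With log2 CPM and TMM factors the median analysed gene moved to -0.10 for CBFB and -0.60 for hnRNPK, and as deposited it stood at -1.53 and -2.75. S100A14 passed the edgeR threshold without the filter on low counts (-0.91, adjusted p = 0.0134). No paired analysis was possible because replicate number 1 alone occurs in each arm of a comparison. S100A4, S100A8 and S100P had at most 59 counts in each hnRNPK RIP, which limits their values.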
